A study of Mus musculus with 14 samples.

Results

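H4K20 methylation, the addition of methyl groups to lysine 20 of histone H4, was followed at the transcript level through 7 genes in mouse tumor organoids in which 1 of its writers was the target of short hairpin RNAs. The members are the writers Kmt5a, Kmt5b and Kmt5c, the methyl readers L3mbtl1, L3mbtl3 and Trp53bp1, and the demethylase Phf8. They were chosen by name for their role in this mark, out of 55421 genes listed in set 1 and 17490 genes listed in set 2. All 7 were listed in both sets, and 6 passed the filter on low counts in each set. L3mbtl1 did not.

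RNA-seq counts came from cultures that the labels call APT organoids, a tumor organoid line labelled as small intestinal. The labels do not spell the name out. Hairpin 1 was directed at exon 4 and hairpin 2 at exon 9 of Suv4-20h2, listed under the symbol Kmt5c. The labels name each hairpin line as 1 clone. Each is matched with its own control line that carries a control hairpin, so line and hairpin cannot be told apart. Control 1 and hairpin 1 form set 1, with 3 libraries in each group. Control 2 and hairpin 2 form set 2, with 4 libraries in each. The hairpins were inducible, and every group, both controls included, was kept for 4 days in 0.5 µg/ml doxycycline. All samples carry the same treatment label, chromatin compaction, and the sources used here give no other allele of the line. The comparisons address how each hairpin line differs from its control line. Whether replicates are separate cultures is not stated in the labels, and p-values therefore measure only how far these libraries vary, which may be technical.

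H4K20 is methylated in steps by different enzymes. Kmt5a (also called Set8 or PR-Set7) places the first methyl group, mostly in the later part of the cell cycle, and Kmt5b and Kmt5c (Suv4-20h1 and Suv4-20h2) carry that mark on to the dimethyl and trimethyl states. The trimethyl state is known for its place in compact heterochromatin around centromeres, where Kmt5c is brought in by HP1 proteins, while the dimethyl state covers much of the genome and is bound by the repair protein 53BP1, encoded by Trp53bp1.

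The sequence that hairpin 1 is directed at lies within a single short exon, and it is shown because Kmt5b is the nearest relative of the target. In the principal transcript of GENCODE M21 (GRCm38), exon 4 of Kmt5c is 110 bases long, lies at chr7:4742619-4742728 on the plus strand and is coding throughout. It is printed 5′ to 3′, with capitals for the bases that differ from the Kmt5b transcript set beside it without gaps.
Kmt5c exon 4: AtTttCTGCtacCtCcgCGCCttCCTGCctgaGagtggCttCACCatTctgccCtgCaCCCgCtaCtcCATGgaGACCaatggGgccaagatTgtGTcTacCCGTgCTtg
The local alignment with Kmt5b covered 67 bases of the exon, 43 of them identical. It was extended without gaps over the rest, so capitals outside those 67 bases rest on the extension and not on an alignment. Of the 110 bases compared in this way, 60 were identical in Kmt5b (54.5%). The longest run that the exon shared with any Kmt5b transcript was 11 bases. Exon 9, the target of hairpin 2, lies at chr7:4746377-4747514 and holds 512 coding bases followed by 626 bases of 3′ UTR. Over the whole transcript, Kmt5c shared no run longer than 13 bases with Kmt5b or Kmt5a. The exon numbers here are those of GENCODE, and the hairpin sequences themselves were not analysed here.

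All 7 members are protein-coding genes on GRCm38. Kmt5c (ENSMUSG00000059851) spans chr7:4740115-4747514, Kmt5b (ENSMUSG00000045098) chr19:3767421-3818303 and Kmt5a (ENSMUSG00000049327) chr5:124439930-124462308, each on the plus strand. Trp53bp1 (ENSMUSG00000043909) at chr2:121193281-121271407 and L3mbtl3 (ENSMUSG00000039089) at chr10:26274468-26375971 lie on the minus strand. L3mbtl1 (ENSMUSG00000035576) at chr2:162943472-162974522 and Phf8 (ENSMUSG00000041229) at chrX:151520672-151633859 lie on the plus strand.

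Total counts per library were 9272134 to 26284079. Hairpin 1 replicate 1 stood apart: its mean Pearson correlation with the other hairpin 1 libraries, across genes in log2 CPM, was 0.864. Within groups it was 0.924 to 0.969 for the other libraries of set 1 and 0.979 to 0.994 in set 2. Each hairpin 1 library was nearer on average to control 1 (0.888, 0.961 and 0.963) than to its own group (0.864, 0.924 and 0.926). Epithelial markers were high in all libraries, at 4393 to 6943 CPM summed over 7 genes (CPM are counts scaled to the library total). In hairpin 2, 3 of them (Krt8, Krt18 and Cdh1) were lower past the test, and the summed level was 4393 to 5017 CPM against 5553 to 5700 in control 2. Fibroblast markers summed to 11.3 to 12.7 CPM in control 2 and 13.9 to 15.8 CPM in hairpin 2, with no overlap. Pdgfra was called higher there (0.55, adjusted p = 0.0094) and Pdgfrb lower (-3.41, adjusted p = 0.0073). In set 1 they summed to 1.89 to 10.1 CPM. Immune markers summed to 5.62 to 54.8 CPM over all libraries, nearly all of it Cd68. Dcn was at 0 in every set 1 library. Endothelial markers stayed at or below 2.5 CPM except for 49.7 CPM in hairpin 1 replicate 1, of which Cdh5 gave 49.6. The part of these differences in the results that follow was not tested, and in bulk RNA fewer cells of a type and less RNA per cell cannot be told apart.

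Among the writers, Kmt5a had the highest level per length in every group, followed by Kmt5c and then Kmt5b. Levels per length were CPM divided by the kilobases of annotated exon, here 5.31 kb for Kmt5a, 4.00 kb for Kmt5c and 14.75 kb for Kmt5b. In control 1, Kmt5a had 48.0 ± 6.31 CPM per kb, Kmt5c 17.9 ± 1.06 and Kmt5b 5.71 ± 1.45 (SD, n = 3). In control 2, they had 42.4 ± 1.02, 30.9 ± 1.60 and 7.11 ± 0.622 CPM per kb (SD, n = 4). In CPM per kb, the ranges of these 3 genes did not overlap within any of the 4 groups. The order of Kmt5c and Kmt5b rests on the length used, which is all annotated exon and not the transcripts expressed. In mean CPM, Kmt5b was above Kmt5c in control 1 (84.3 against 71.8), hairpin 1 (79.6 against 58.0) and hairpin 2 (115.8 against 107.6). In control 2 it was below (104.9 against 123.6).

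Readers and the demethylase were lower. Phf8 and Trp53bp1 held the next places, at 1.81 ± 0.525 and 2.42 ± 0.467 CPM per kb in control 1 and 6.09 ± 0.441 and 4.70 ± 0.240 CPM per kb in control 2. Their order is not set in set 1, where their ranges overlapped in both groups. In control 2 the range of Phf8 overlapped that of Kmt5b. L3mbtl3 followed at 0.722 ± 0.293 CPM per kb in control 1 and 1.85 ± 0.133 in control 2, and L3mbtl1 came last in all groups, at 0.0343 to 0.116 CPM per kb on average. Sets were not tested against each other, since their gene lists and libraries differ throughout.

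**Figure D1:**
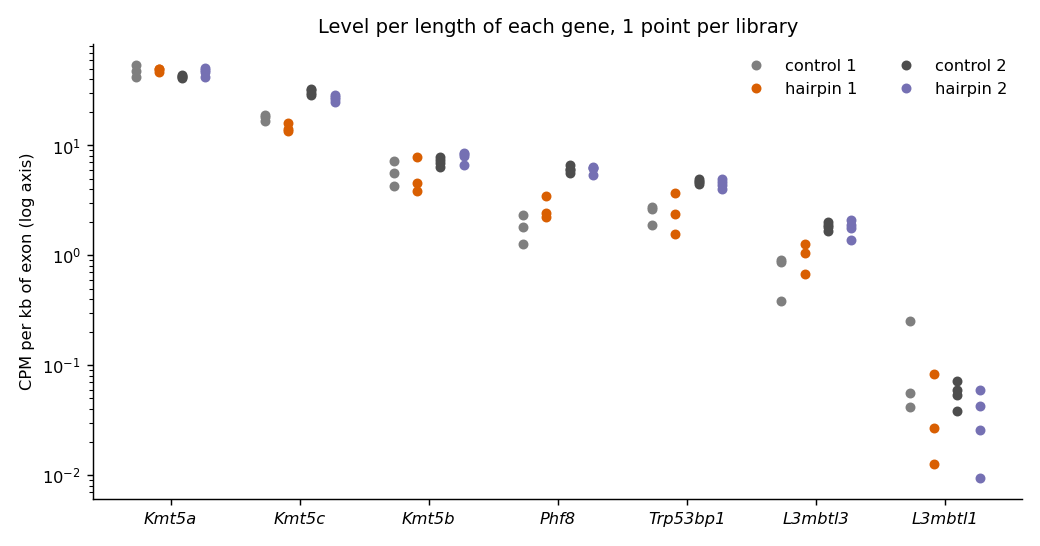
Level of each gene in CPM per kb of exon (log axis), 1 point per library, coloured by group. Kmt5a, Kmt5c and Kmt5b lie in separate bands in every group, and L3mbtl1 lies below all others.

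Kmt5c, the hairpins' target and the writer of the trimethyl mark, was lower in every hairpin library than in any control library of its set. In set 1 it had 72.3, 75.8 and 67.3 CPM in control 1 and 53.6, 64.3 and 56.1 CPM in hairpin 1. In set 2 it had 129, 121, 116 and 128 CPM in control 2 and 114, 111, 99.3 and 106 CPM in hairpin 2. The groups did not overlap in either set, and the gap was narrow in both: 64.3 against 67.3 CPM, and 114 against 116 CPM. No other member had this pattern in even 1 set. Lower levels with no overlap were found for 6.34% of the genes tested in set 1 and 8.42% in set 2, and for 0.816% of the 12384 genes tested in both (101 genes, Kmt5c included).

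The remaining Kmt5c transcript was 80.8% of control with hairpin 1 (95% interval 60.8 to 107.3%) and 87.2% with hairpin 2 (79.2 to 95.9%). On the log2 scale these were changes of -0.31 (SE 0.175) and -0.20 (SE 0.0619). Neither passed the threshold of 0.05, with edgeR adjusted p = 0.80 for hairpin 1 and 0.098 for hairpin 2. Same-numbered libraries of set 2 were treated as pairs. This rests on correlations in these data, much of it driven by replicate 4, and not on the labels. With the number as a block the hairpin 2 change was -0.20 with an edgeR adjusted p of 0.0074. Kmt5c was lower by 0.12 to 0.28 on the log2 scale across the 4 pairs. That all 4 were lower follows from the lack of overlap and adds nothing to it. With voom quality weights the adjusted p was 0.039. Kmt5c was thus called lower for hairpin 2 in these 2 fits, and in no fit for hairpin 1. The block fit called 10.1% of all genes lower. Voom also called more genes in all than the unpaired edgeR fit, with the counts given in the last section. In the other fits for hairpin 2 Kmt5c was not called. The DESeq2 Wald test gave an adjusted p of 0.060. The edgeR test gave 0.093 to 0.256 on leaving out 1 library and 0.86 with all 14 libraries in 1 model.

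The change in the target was not among the largest in these libraries. Of the genes tested, 21.3% were lower by more than Kmt5c with hairpin 1 and 16.5% with hairpin 2, and by p-value it ranked 1974th of 13540 and 1350th of 14126. The average of both hairpin effects, from a model of all 14 libraries, was -0.25 (95% interval -0.40 to -0.10, edgeR adjusted p = 0.11, and 0.017 with the DESeq2 Wald test). The difference between the hairpin effects on Kmt5c, hairpin 2 minus hairpin 1, was 0.10 (-0.21 to 0.40, adjusted p = 0.82). Without hairpin 1 replicate 1 the hairpin 1 change was -0.26. Genes of chromosome 7, where Kmt5c lies, had a median log2 fold change of -0.07 with hairpin 1 and -0.02 with hairpin 2. All genes of at least 5 CPM had 0.04 and 0.01, and the part of this in the Kmt5c value was not tested. Protein and the histone mark were not analysed here, so the counts bear on transcript level alone.

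Kmt5b, the paralogue that shares the dimethyl and trimethyl steps, was below 0 with hairpin 1 and above 0 with hairpin 2, and neither value passed edgeR's test of the unpaired groups. With hairpin 1 it had 63.2, 83.7 and 106 CPM in control 1 and 115, 66.8 and 57.1 CPM in hairpin 1, so 1 hairpin library lay above all controls and 1 below. The log2 fold change was -0.08 (SE 0.321, adjusted p = 0.96), and -0.45 (adjusted p = 0.37) without hairpin 1 replicate 1. It turned above 0, up to 0.15, when control 1 replicate 3, hairpin 1 replicate 2 or hairpin 1 replicate 3 was left out. With hairpin 2 Kmt5b had 109, 101, 115 and 94.0 CPM in control 2 and 125, 118, 122 and 97.9 CPM in hairpin 2. Here 3 of 4 hairpin libraries lay above every control, and the replicate 4 library was the lowest of each group.

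The hairpin 2 change in Kmt5b was 0.14 (SE 0.0896, adjusted p = 0.43). The paired fit gave the same size, 110.4% of control, with a narrower interval (103.1 to 118.2%) that passed (adjusted p = 0.043), and Kmt5b was higher in all 4 pairs, by 0.06 to 0.22. It also passed with voom quality weights (adjusted p = 0.045) and without both replicate 4 libraries (0.046). Both of these fits called more genes over the whole set than the unpaired edgeR fit, with the counts given in the last section. The paired fit called 10.2% of all genes higher. Kmt5b did not pass on leaving out any 1 library (edgeR adjusted p = 0.081 to 0.65), nor with all 14 libraries in 1 model. The difference between the hairpin effects was 0.21 (-0.45 to 0.88, adjusted p = 0.82). Without hairpin 1 replicate 1 it was 0.55 (adjusted p = 0.16), so the opposite signs were not shown to differ. An antisense gene, Gm16066, overlaps 927 exonic bases of Kmt5b and had 0 counts in all set 1 libraries. The median log2 fold change of chromosome 19, where Kmt5b lies, was -0.09 with hairpin 1 and -0.02 with hairpin 2. Over all genes of at least 5 CPM it was 0.04 and 0.01, and its part in the Kmt5b values was not tested.

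Kmt5a, which supplies the monomethyl mark that the other writers act on, was nearly level with hairpin 1 and higher in 3 of 4 libraries with hairpin 2. It had 221, 288 and 255 CPM in control 1 and 262, 250 and 265 CPM in hairpin 1, where all hairpin values lay inside the control range (log2 fold change 0.02, SE 0.178, adjusted p = 0.98). In set 2 it had 223, 230, 218 and 228 CPM in control 2 and 245, 222, 258 and 271 CPM in hairpin 2. The replicate 2 library was the exception, and 3 of 4 pairs were higher. The change was 0.15 (SE 0.0652, adjusted p = 0.25, and 0.075 with the block), or 110.7% of control (100.1 to 122.4%). Genes of chromosome 5, where Kmt5a lies, had a median log2 fold change of 0.12 with hairpin 2 against 0.01 over all genes of at least 5 CPM, and the part of this in the Kmt5a value was not tested.

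**Figure D2:**
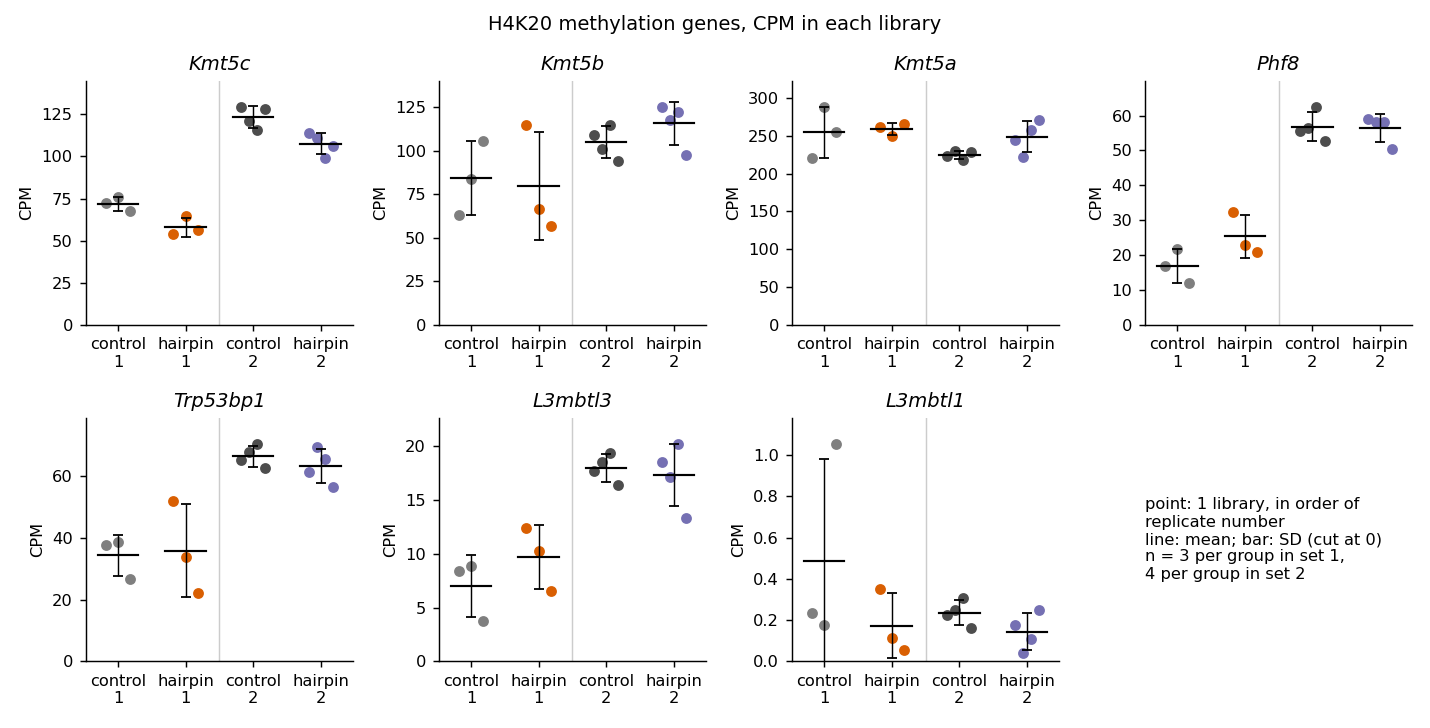
CPM of each gene in every library (points, in order of replicate number), with the mean (line) and SD (bar) of each group of 3 libraries in set 1 and 4 in set 2. Kmt5c is the panel in which no hairpin point reaches the control points of its set.

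The ratio of Kmt5c to Kmt5a within each library, which cancels any error in the library's scaling, was lower on average by a like amount with both hairpins. The log2 ratio of Kmt5c to Kmt5a per length was -1.21, -1.52 and -1.51 in control 1 and -1.88, -1.55 and -1.83 in hairpin 1. In set 2 it was -0.38, -0.52, -0.50 and -0.42 in control 2 and -0.70, -0.60, -0.97 and -0.95 in hairpin 2. Groups did not overlap in either set, and the means differed by -0.34 in set 1 and -0.34 in set 2. The exact two-sided permutation p was 0.10 in set 1 and 0.029 in set 2, each the smallest the group sizes allow, and 0.13 and 0.11 after adjustment over the 4 ratios tested. Neither passed after adjustment. The 2 genes contributed differently: Kmt5c and Kmt5a were at -0.31 and 0.02 with hairpin 1, and at -0.20 and 0.15 with hairpin 2.

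The ratio of Kmt5c to Kmt5b moved less evenly. It was 2.08, 1.74 and 1.23 in control 1 and 0.78, 1.83 and 1.86 in hairpin 1, which overlap widely (difference -0.19, exact permutation p = 0.70). In set 2 it was 2.12, 2.13, 1.89 and 2.33 in control 2 and 1.75, 1.79, 1.58 and 2.00 in hairpin 2, with a small overlap (difference -0.34, exact permutation p = 0.057). Adjusted over the 4 ratios, these were 0.70 and 0.11.

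**Figure D3:**
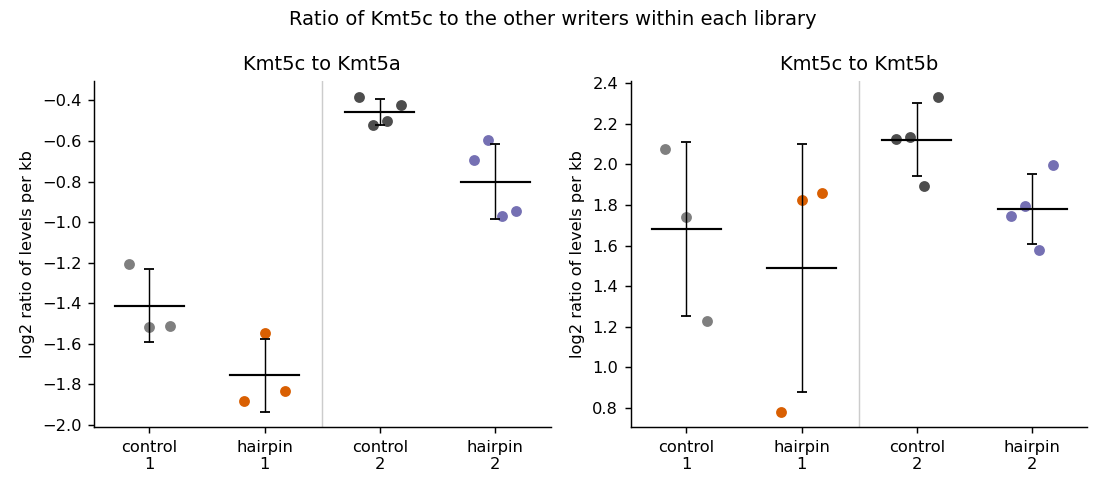
Log2 ratio of Kmt5c to Kmt5a (left) and to Kmt5b (right), both per kb of exon, in each library, with mean and SD per group. The ratio to Kmt5a is lower in all hairpin libraries than in all controls of their set, and the ratio to Kmt5b overlaps between the groups in both sets.

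Phf8, a demethylase that removes the monomethyl mark, was higher on average with hairpin 1 and level with hairpin 2, with neither past the test. It had 16.8, 21.7 and 11.95 CPM in control 1 and 32.4, 22.8 and 20.8 CPM in hairpin 1. In set 1, 2 of 3 hairpin libraries lay above all controls and replicate 3 lay inside their range. The log2 fold change was 0.59 (SE 0.314, 95% interval -0.15 to 1.32, adjusted p = 0.80), and 0.37 without hairpin 1 replicate 1. X-linked genes, among them Phf8, had a median of 0.15 with hairpin 1 against 0.04 over all genes of at least 5 CPM.

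With hairpin 2, Phf8 was level, with 55.6, 56.5, 62.4 and 52.6 CPM in control 2 and 59.2, 58.2, 58.1 and 50.5 CPM in hairpin 2. Its change there was -0.007 (SE 0.0745, interval -0.17 to 0.16, adjusted p = 0.98). The difference between the hairpin effects was -0.61 (-1.18 to -0.04), with an unadjusted edgeR p of 0.039 and an adjusted p of 0.38, and -0.42 without hairpin 1 replicate 1. This difference did not pass over all genes tested.

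Trp53bp1 encodes 53BP1, which binds dimethylated H4K20 beside DNA breaks and favours their repair by end joining. It had 37.6, 38.7 and 26.7 CPM in control 1 and 51.9, 33.8 and 22.1 CPM in hairpin 1, a spread within the hairpin group wider than any shift between groups. The log2 fold change was 0.07 (SE 0.343, adjusted p = 0.97), with -0.30 (adjusted p = 0.60) without hairpin 1 replicate 1 and -0.06 without control 1 replicate 3. In set 2 it had 65.3, 67.8, 70.5 and 62.6 CPM in control 2 and 61.5, 69.5, 65.7 and 56.6 CPM in hairpin 2, with overlapping groups (-0.07, SE 0.0736, adjusted p = 0.67). Its interval with hairpin 2 was 85.0 to 106.7% of control. Tubgcp4 overlaps 2130 exonic bases of Trp53bp1 on the other strand, and whether the counting used strand is not given in the sources used here. Tubgcp4 was at 0.29 with hairpin 1 and -0.11 with hairpin 2, neither past the test.

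The MBT-domain readers, which bind lower methylation states and are known for compacting or repressing chromatin, were the least abundant members. L3mbtl3 had 8.38, 8.91 and 3.75 CPM in control 1 and 12.4, 10.2 and 6.52 CPM in hairpin 1 (0.47, SE 0.439, adjusted p = 0.84). In set 2 it had 17.7, 18.5, 19.4 and 16.4 CPM in control 2 and 18.6, 17.2, 20.2 and 13.4 CPM in hairpin 2 (-0.06, SE 0.120, adjusted p = 0.85). Groups overlapped in both sets, and the interval for hairpin 1, 67.7 to 282.6% of control, leaves room for large changes. L3mbtl1 had 4, 3 and 18 counts in control 1, 8, 2 and 1 in hairpin 1, 5, 5, 8 and 4 in control 2, and 4, 1, 1 and 3 in hairpin 2. Without the filter it did not pass with either hairpin (edgeR adjusted p = 0.76 and 0.50), and no fold is given at these counts.

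Counted together, 0 of the 6 members tested were called with either hairpin. With hairpin 1, edgeR called 0.0% of 13540 genes (0 genes, with 733 at an unadjusted p under 0.05, 18 called by the DESeq2 Wald test and 8 by voom with quality weights). With hairpin 2 it called 6.05% of 14126 genes, 2.04% higher and 4.01% lower. The paired fit called 20.4% of them, and 1 member higher (Kmt5b, against 10.2% of all genes) and 1 lower (Kmt5c, against 10.1%). The members' median log2 fold change was 0.04 with hairpin 1 and -0.03 with hairpin 2, beside 0.03 and 0.005 over all genes tested. In the average of both effects 0.977% of 15043 genes were called and in their difference 0.412%, with no member in either.

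**Figure D4:**
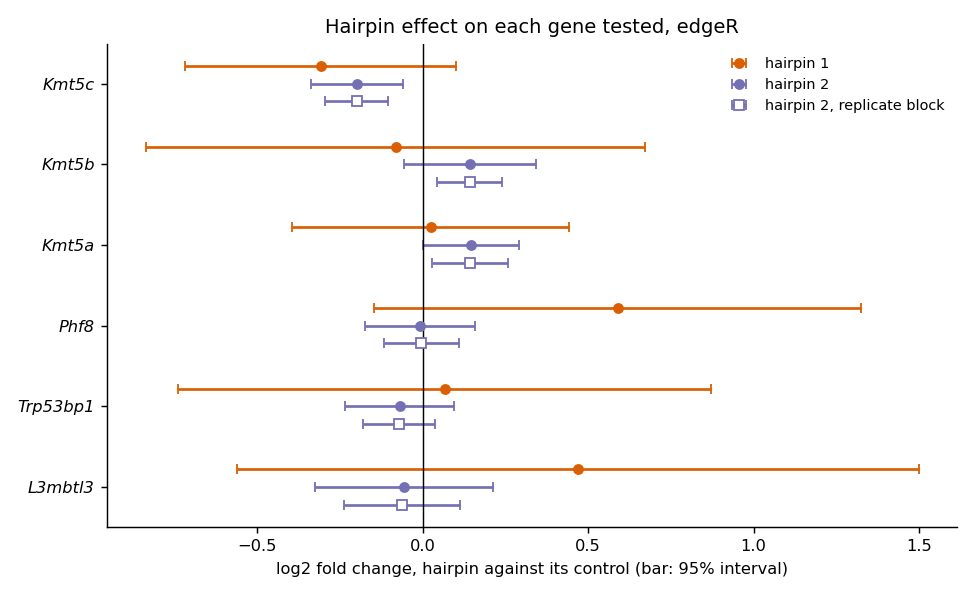
Log2 fold change of the 6 genes tested, hairpin against its own control, with 95% intervals from edgeR (circles) and, for set 2, from the paired fit (squares). Kmt5c lies below 0 in all 3 estimates, at -0.31, -0.20 and -0.20, and hairpin 1 intervals are the wider ones.

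Members differed in which libraries carried their highest and lowest values. Hairpin 1 replicate 1 was the highest of its group for 5 of 7 members (Kmt5b, L3mbtl1, L3mbtl3, Trp53bp1 and Phf8) and the lowest for Kmt5c. Hairpin 1 replicate 3 was the lowest for those same 5. In set 2 the replicate 4 library was the lowest of both groups for Kmt5b, L3mbtl3, Trp53bp1 and Phf8, and hairpin 2 replicate 4 was the highest for Kmt5a. None of the other 5 members tested tracked Kmt5c closely. Over the 14 libraries, with each set centred on its own mean, their Pearson correlations of log2 CPM with Kmt5c ran from -0.43 for Phf8 to 0.04 for Trp53bp1.

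The genes most like Kmt5c in the same measure, out of 9363 with at least 5 CPM in both sets, were Ccdc61 (Pearson r = 0.96, Spearman rho = 0.96), Plekhf1 (r = 0.95, rho = 0.96) and Prkcd (r = 0.92, rho = 0.92). All 3 were above 0.9 within each set alone, in the same libraries by which they were picked. These points share their libraries and their hairpin groups, and the values are descriptions. With hairpin 1 the log2 fold changes were -0.33 for Ccdc61, -0.78 for Plekhf1 and -0.43 for Prkcd (adjusted p = 0.80 for each), and with hairpin 2 they were -0.14, -0.38 and -0.16 (adjusted p = 0.30, 0.13 and 0.19).

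Around the members, 8 lists of genes that act on or with this mark were examined, and 3 of the 86 genes tested in them (3.49%) were called with hairpin 2, beside 6.05% of all genes. The paired fit called 17 of the 86 (19.8%), beside 20.4% of all genes, so neither share of the lists lay above that of all genes. Other enzymes reported to act on H4K20 held 2 of them, both higher, among 8 tested. Phf2, a demethylase of the same family as Phf8, rose from 139 ± 2.27 to 168 ± 3.69 CPM (SD, n = 4 each, log2 fold change 0.27, adjusted p = 0.0066). Control libraries spanned 136 to 141 CPM and hairpin libraries 164 to 173 CPM. It stayed past the threshold when any 1 library was left out, with adjusted p up to 0.034, but not in the model of all 14 libraries (adjusted p = 1.0). In set 1 Phf2 spanned 22.3 to 36.7 CPM in control 1 and 42.1 to 82.5 CPM in hairpin 1, again with no overlap, and was at 0.88 without passing (adjusted p = 0.80). Higher levels with no overlap were found for 6.5% of the genes tested in set 1 and 6.88% in set 2.

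Nsd1, a methyltransferase best known for H3K36, rose from 123 ± 6.05 to 149 ± 12.5 CPM with hairpin 2 (0.27, adjusted p = 0.049). Its ranges touched, at 131.5 and 130.9 CPM, and the call was lost on leaving out 7 of the 8 libraries in turn, with adjusted p up to 0.14. The list's median was 0.15 with hairpin 2 and 0.22 with hairpin 1, beside 0.005 and 0.03 over all genes. The paired fit called 5 of the 8 higher and 0 lower, where it called 10.2% of all genes higher, adding Nsd2 (0.22), Rsbn1l (0.15) and Kdm7a (0.14). Kdm7a belongs to the same family as Phf2 and Phf8.

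The list of 53BP1 partners at DNA breaks held the third call. Mdc1, a scaffold that binds the phosphorylated histone H2A.X beside breaks, fell from 90.7 ± 5.02 to 75.7 ± 2.66 CPM with hairpin 2 (SD, n = 4 each, log2 fold change -0.26, adjusted p = 0.028). Control libraries spanned 85.0 to 96.8 CPM and hairpin libraries 72.0 to 77.6 CPM. The call was lost on leaving out 6 of the 8 libraries in turn (adjusted p up to 0.10), and the direction was kept. With hairpin 1 Mdc1 was at 0.15 (adjusted p = 0.87). The other 14 members tested were not called. The paired fit also called H2afx (0.20) and Paxip1 (0.18) higher, and the list's median was 0.007 with hairpin 2 and 0.15 with hairpin 1.

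Other readers of the mark held no call among 8 tested with hairpin 2, with a median of -0.08 and 1 of 8 above 0. In the paired fit 2 were called lower, where 10.1% of all genes were: Lbr (-0.21), a receptor of the inner nuclear membrane, and Tonsl (-0.25), which reads unmethylated H4K20 on newly made chromatin. Factors that govern Kmt5a protein turnover held no call among 13, with a median of 0.04. The paired fit called Cdc14b (0.36) and Fbxo11 (0.15) higher and Cdt1 (-0.18) lower. Cdt1 is a licensing factor destroyed by the same CRL4-Cdt2 ligase as Kmt5a.

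HP1 proteins, cohesin subunits and other partners of the Suv4-20h enzymes held no call among 14, with a median of 0.08 with hairpin 2. The paired fit called Rb1 (0.23) higher. Condensin II (5 tested, median 0.05), which is linked to monomethyl H4K20 in mitosis, origin licensing genes (10 tested, median -0.03) and G2/M markers (16 tested, median -0.04) held none either. In the paired fit Ncapg2 (0.18), Orc5 (0.24) and Ccnb1 (0.22) were higher, and Cdt1, also an origin licensing gene, was lower. G2/M markers bear on Kmt5a, whose level follows the cell cycle: their summed level was 1874 to 2565 CPM in control 2 and 1764 to 2452 CPM in hairpin 2, and 2138 to 2935 CPM in control 1 and 2462 to 2881 CPM in hairpin 1, which overlap in both sets.

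With hairpin 1 none of these genes was called, and the smallest adjusted p in any list was 0.80. The lowest unadjusted p in each list belonged to Phf2 (0.88), L3mbtl4 (-0.97), Cdc14a (0.66), Bard1 (0.38), Rad21 (0.45), Ncapg2 (0.68), Orc4 (0.35) and Mki67 (-0.29), given as log2 fold changes. List medians with hairpin 1 ran from -0.07 for the other readers to 0.35 for condensin II, where 4 of 5 members were above 0.

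**Figure D5:**
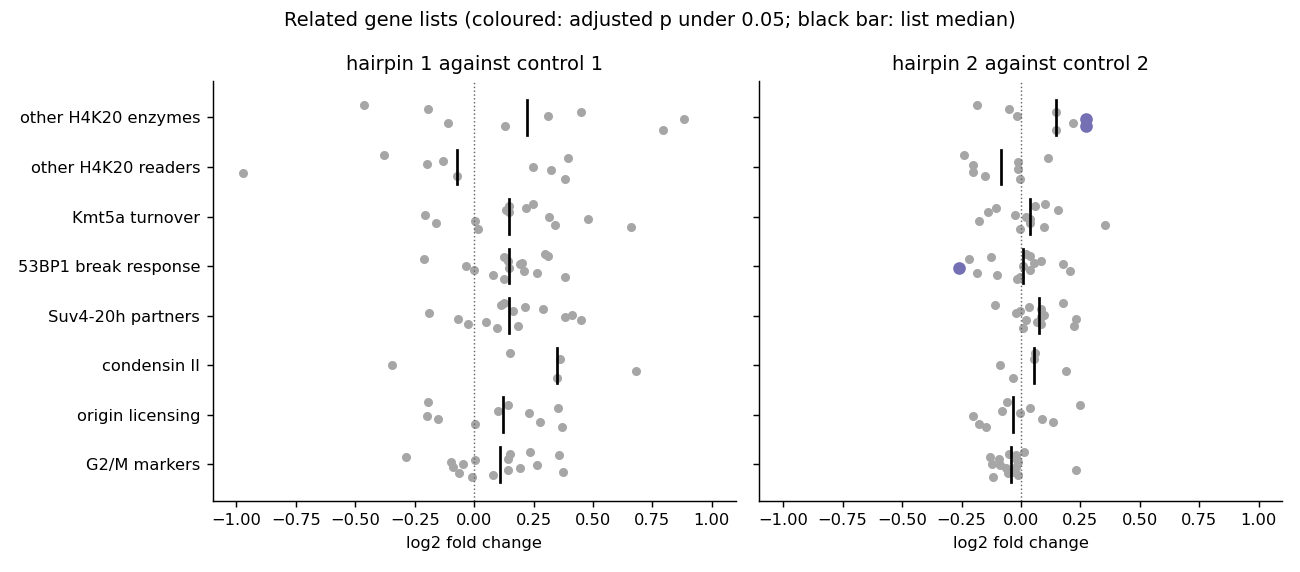
Log2 fold change of each tested gene in the 8 lists with hairpin 1 (left) and hairpin 2 (right), with the list median as a black bar. The 3 coloured points with hairpin 2 are Phf2 and Nsd1 (higher) and Mdc1 (lower), and no point is coloured with hairpin 1.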

How the data were processed

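For each of 14 libraries the authors deposited raw counts per gene, made from stranded poly(A) libraries, per the labels' protocols. The submitters' processing notes name bcl2fastq 2.20, FastQC, STAR, featureCounts, DESeq2 and GRCm38, with other versions and the strand setting not given in the sources used here. Genes were matched to GENCODE M21 (55154 genes in set 1 and 17464 in set 2). Set 1 files include 26935 genes with no count, and set 2 files 198. The 6 members tested had 64 to 5975 counts per library. Counting error is small for the writers, at 918 counts or more. It is larger for L3mbtl3 (64 to 508 counts) and for Phf8 in set 1 (204 to 738).

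The hairpin and control libraries of a set were compared by the quasi-likelihood test of edgeR 4.0.16 in R 4.3.3, with TMM scaling, the filterByExpr filter and Benjamini-Hochberg adjustment over all genes tested, at 0.05. A model of the 4 groups, on genes listed in both sets, gave the average and the difference of the hairpin effects. The script was checked on simulated data. CPM are counts divided by TMM-scaled totals. Within-library ratios were compared by exact two-sided permutation tests. Alternatives were DESeq2 size factors, no filter, the DESeq2 Wald test (1.42.0), voom with quality weights (limma 3.58.1), the replicate block, all 14 libraries in 1 model, leaving out each library, and leaving out both replicate 4 libraries.

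Replicate numbers were checked for pairing by correlating the deviations of same-numbered libraries from their group means. In set 2 these were 0.232, 0.14, 0.229 and 0.58. As each exceeded 0.1, same-numbered libraries were treated as pairs, which rests on the data and not on the labels. Other pairings among replicates 1 to 3 reached 0.099 to 0.204, so replicate 4 drives much of this. The cut of 0.1 does not tell same-numbered from other pairings among replicates 1 to 3. Hairpin 2 replicate 2 was nearer to control 2 replicate 1 (0.184) than to its own number (0.14). Pairing among replicates 1 to 3 was therefore not shown. In set 1 the same-numbered correlations were 0.222, -0.022 and 0.262, and no pairing was taken.

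Members and lists were chosen with earlier results of these data known. From each list, genes called in either set or in the paired fit are named, and otherwise those with the smallest p. The 3 genes most like Kmt5c were named by their correlation with it. Shld3 was not listed under that symbol.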

Additional observations from a re-analysis of the deposited data

Results flagged for a closer look

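Phf8 in hairpin 2 had 1 library far from the others of its group: replicate 4, at 50.5 CPM, against 58.1 to 59.2 CPM in the other three. The check covered 18 groups of 4 libraries, and chance marks about 5% of such groups. Replicate 4 was also the lowest of control 2 for Phf8, at 52.6 CPM. Without hairpin 2 replicate 4 the Phf8 change was 0.04 (edgeR adjusted p = 0.72).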

How the results depend on the processing

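Kmt5c stayed below 0 under all 12 alternatives for hairpin 1 (-0.39 to -0.22) and all 15 for hairpin 2 (-0.23 to -0.16). It passed for hairpin 2 with the replicate block and with voom, and in the average with the DESeq2 Wald test. Kmt5b passed for hairpin 2 with the replicate block (adjusted p = 0.043), with voom (0.045) and without both replicate 4 libraries (0.046). The number of genes called with hairpin 1 was 18 with the DESeq2 Wald test, 8 with voom, 187 with all 14 libraries in 1 model and 0 to 1 on leaving out 1 library. For hairpin 2, beside 854, it was 1321 with DESeq2, 120 with all 14 libraries, 2396 without both replicate 4 libraries, 2880 with the replicate block, 2466 with voom and 453 to 1409 on leaving out 1 library, the most without hairpin 2 replicate 4. For the average it was 716 with DESeq2 and 42 to 1320 on leaving out 1 library, and for the difference 398 and 27 to 959, both highest without hairpin 1 replicate 1. The cause was not tested.

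Signs changed for values near 0. Trp53bp1 with hairpin 1 was -0.001 with the replicate block and -0.18 with voom, and in the average it was -0.032 with the block. Phf8 with hairpin 2 was 0.007 without both replicate 4 libraries and 0.03 with voom. On leaving out 1 library, values with hairpin 1 ran from -0.039 to 0.122 for Kmt5a, -0.45 to 0.15 for Kmt5b, -0.30 to 0.36 for Trp53bp1 and -0.092 to 0.349 for Nsd1. With hairpin 2 they ran from -0.13 to 0.04 for L3mbtl3 and -0.042 to 0.043 for Phf8. In the average they ran from -0.13 to 0.13 for Kmt5b and -0.17 to 0.12 for Trp53bp1, and in the difference from -0.39 to 0.19 for Trp53bp1. The ratio of Kmt5c to Kmt5b in set 1 ran from -0.42 to 0.16. The ratio of Kmt5c to Kmt5a in set 2 was -0.34 in the sign-flip test of the replicate block. Its exact p of 0.125 is the smallest that 4 pairs allow. On leaving out 1 library the ratio ran from -0.41 to -0.29, with the smallest exact p that 4 against 3 allows, 0.057. Phf2, Nsd1 and Mdc1 were not called for hairpin 2 with all 14 libraries in 1 model, and Nsd1 was not called with DESeq2 size factors (adjusted p = 0.050) or without the filter (0.051). L3mbtl1, at 1 to 18 counts, was tested only without the filter and with DESeq2, and passed in neither where an adjusted p was given.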
